A study of Mus musculus with 16 samples.

Results

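The 30 genes described here make, regulate, store and export cholesterol, and they were taken by symbol from the 49585 genes measured. They comprise 18 enzymes of cholesterol synthesis, 7 of them in the mevalonate steps and 11 in the sterol steps, 5 genes that control the SREBP transcription factors, 2 genes for transport and storage of sterol inside the cell, and 5 genes of the LXR group. All 30 passed the filter on low values in every comparison, with the fewest reads, 18, for Nr1h3 in 1 bone marrow library. RNA with a poly(A) tail was sequenced from CD45+ cells, the leukocyte fraction, of bone marrow (BM) and spleen (SP). The mice carried Dbh-Cre, which acts in cells that make noradrenaline or adrenaline, on a C57BL/6J background, and they were 12 weeks old. A Cre-dependent adeno-associated virus was placed on both sides of the ventrolateral medulla (VLM) of the brainstem. It was either AAV-DIO-hM3Dq-mCherry, whose receptor hM3Dq is activated by clozapine N-oxide (CNO), or AAV-DIO-mCherry as the control. All 4 groups received CNO, cells were taken 4 h later, and each group had 4 libraries, numbered 5 to 8 for hM3Dq and 1 to 4 for mCherry. No group without CNO and no group without virus was among the samples, and the virus was placed in the brain, away from the cells sequenced. The submitters call the libraries of a group biological replicates, and the labels do not say whether 1 mouse gave both tissues.

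Cells build cholesterol from acetyl-CoA. The mevalonate steps yield isoprenoid units, squalene is joined from these, and the sterol steps close the rings and trim lanosterol to cholesterol. When sterol in the endoplasmic reticulum is low, SCAP carries the SREBP factors to the Golgi, where they are cut and freed to switch on the genes of synthesis and lipoprotein uptake, and when sterol is plentiful the INSIG proteins hold SCAP back. The LXR receptors, encoded by Nr1h3 and Nr1h2, sense oxysterols and switch on efflux pumps and MYLIP, which marks lipoprotein receptors for breakdown. Dividing lymphocytes draw on synthesis to build membrane, and macrophages that clear dead cells and senescent red cells depend on efflux.

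Libraries held 11.34 to 16.96 megafragments (M) assigned to genes. Fkbp5, a gene that glucocorticoids induce, was 2.31 ± 0.08 higher on the log2 scale in the hM3Dq libraries of bone marrow and 2.86 ± 0.09 higher in those of spleen. Ptprc, which encodes CD45, was measured in all libraries, at 27.8 to 44.8 FPKM in bone marrow and 66.2 to 93.5 FPKM in spleen, whereas 10 markers of stroma and endothelium summed to 10.4 to 37.2 FPKM. Haemoglobin transcripts, which come from erythroid cells, took 0.391% and 0.564% of the reads in bone marrow hM3Dq replicates 6 and 5 against 1.34% to 2.84% in the other 6 bone marrow libraries. In spleen they took 0.133% in hM3Dq replicate 6 and 0.569% in mCherry replicate 2 against 1.17% to 1.68% in the others. In bulk RNA of mixed leukocytes, fewer cells of a type and less RNA per cell cannot be told apart.

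In spleen, 5 of the 18 synthesis enzymes fell and none rose in the hM3Dq libraries, while the efflux pumps Abca1 and Abcg1 and the ubiquitin ligase Mylip rose and the receptor Nr1h3 fell. Of all 30 genes 3 rose and 6 fell, where a gene counts as changed at an adjusted p below 0.05 in limma over all genes tested. In the same comparison 3.48% of all genes tested rose and 4.57% fell. In bone marrow, Abca1 rose and Nr1h3 fell, with 3.04% of all genes tested higher and 1.70% lower, and limma called none of the 18 enzymes, of which 10 had an unadjusted p below 0.05, all lower, as did 11.6% of all genes tested. The median change of the enzymes was -0.19 on the log2 scale in spleen and -0.28 in bone marrow, against medians of -0.021 and -0.009 over all genes tested. Values below 0 were found for 12 of 18 enzymes in spleen and 15 of 18 in bone marrow.

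**Figure D1:**
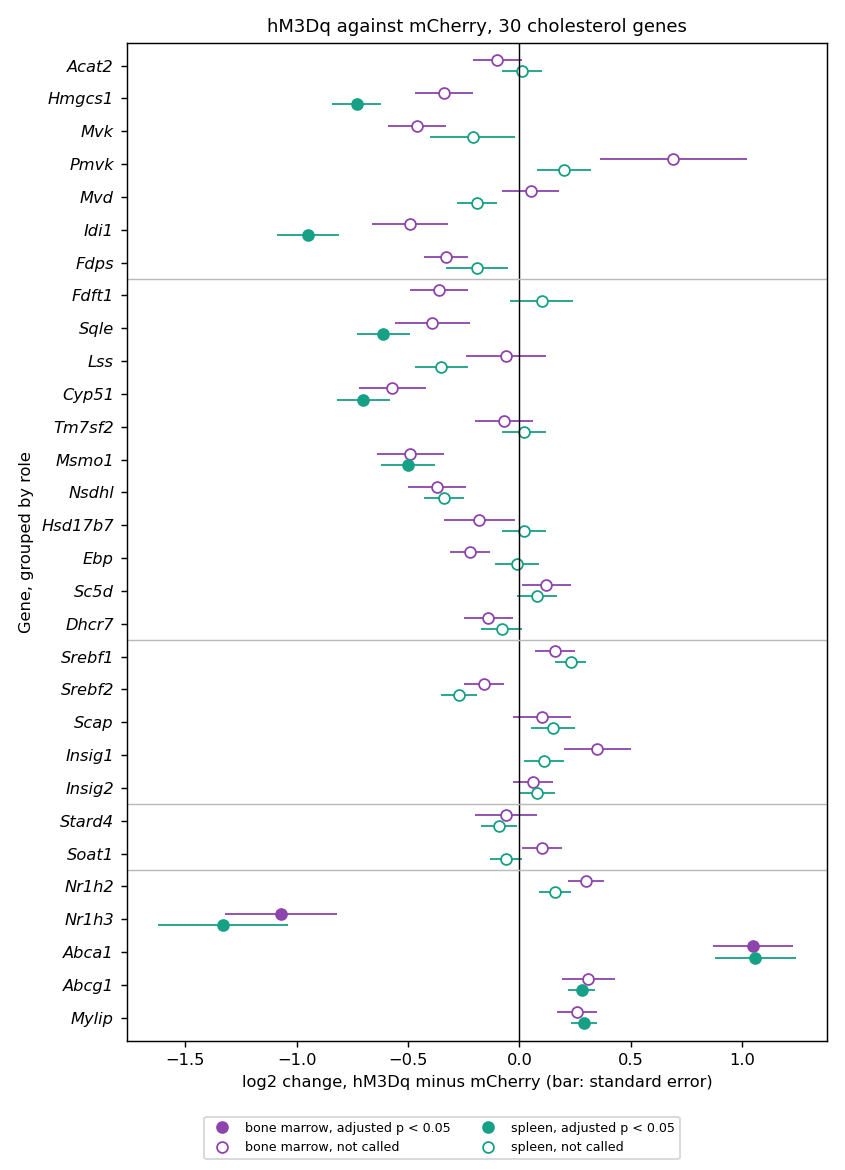
Change of each of the 30 genes between hM3Dq and mCherry libraries (x axis, log2 scale; bars, standard errors of limma; 4 libraries a group), in bone marrow and in spleen, with genes grouped by role on the y axis. Filled points passed an adjusted p of 0.05. Abca1 lies near 1.05 in both tissues and Nr1h3 below -1 in both, and the filled points among the enzymes are those of Hmgcs1, Idi1, Sqle, Cyp51 and Msmo1 in spleen.

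The mevalonate steps begin with Acat2 (acetoacetyl-CoA formation) and Hmgcs1 (HMG-CoA synthase), which lies on chr13:119690379-119708260 of GRCm38. Hmgcs1 had 8.66, 7.12, 7.29 and 7.83 FPKM (fragments per kilobase of exon, per megafragment assigned) in spleen hM3Dq replicates 5 to 8 and 13.3, 14.2, 10.7 and 12.3 FPKM in mCherry replicates 1 to 4. All hM3Dq values lay below all mCherry values, as for 8.92% of all genes tested, and Hmgcs1 fell by 0.73 on the log2 scale (SE 0.11, adjusted p = 0.0107). In bone marrow its values were 10.9, 9.58, 8.87 and 9.67 FPKM against 13.3, 13.1, 8.73 and 12.4 FPKM. These groups overlapped through mCherry replicate 3, and the log2 difference was -0.34 ± 0.13 (adjusted p = 0.163), or -0.48 (adjusted p = 0.0341) without that library.

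Idi1, the isomerase that makes the reactive isoprenoid dimethylallyl diphosphate, had the greatest fall among the enzymes in spleen, 0.95 on the log2 scale (SE 0.14, adjusted p = 0.00852). Its hM3Dq values in spleen were 1.38, 1.06, 1.3 and 1.17 FPKM against 2.21, 2.59, 2.14 and 2.71 FPKM in the mCherry libraries, with no overlap. In bone marrow they were 2.12, 1.34, 1.54 and 1.69 against 2.49, 2.63, 1.84 and 2.04 FPKM, with overlap, and the log2 difference was -0.49 ± 0.17 (adjusted p = 0.125). Idi1 rested on 42 to 148 reads per spleen library, the fewest of the 5 enzymes that fell.

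The other mevalonate genes did not pass the test in either tissue. Mvk and Fdps, which encode mevalonate kinase and farnesyl diphosphate synthase, had all bone marrow hM3Dq values below the mCherry values, as for 3.81% of all genes tested there. Mvk had 1.35, 1.67, 1.5 and 1.46 FPKM against 2.12, 2.05, 1.73 and 2.04, a log2 difference of -0.46 ± 0.13 (adjusted p = 0.0686), and Fdps differed by -0.33 ± 0.10 (adjusted p = 0.0928). Pmvk, the next kinase, had 5.38, 17.2, 8.69 and 15.6 FPKM in the bone marrow hM3Dq libraries against 5.21 to 7.03 FPKM in the mCherry libraries. Replicates 6 and 8 were thus far above the rest and replicate 5 was within the mCherry range, and the log2 difference of 0.69 ± 0.33 had an adjusted p of 0.233, or 1.03 (adjusted p = 0.0351) without hM3Dq replicate 5. Mvd, the decarboxylase, had log2 differences of 0.05 ± 0.13 in bone marrow and -0.19 ± 0.09 in spleen, and Acat2 -0.10 ± 0.11 and 0.01 ± 0.09.

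Among the sterol steps, Sqle, Cyp51 and Msmo1 fell in spleen. Squalene epoxidase, encoded by Sqle, is a rate-limiting oxygenase of the pathway, CYP51 removes the 14-alpha methyl group of lanosterol, and MSMO1 oxidises the C4 methyl groups. Cyp51 had 4.81, 4.21, 3.81 and 3.49 FPKM in the spleen hM3Dq libraries against 6.59, 7.33, 5.72 and 6.53 in the mCherry libraries, a fall by 0.70 on the log2 scale (SE 0.12, adjusted p = 0.0136). Sqle had 1.94, 1.57, 1.52 and 1.79 FPKM against 2.38, 2.76, 2.66 and 2.56, a fall by 0.61 (SE 0.12, adjusted p = 0.023). Msmo1 had 2.26, 1.79, 2.1 and 2.09 FPKM against 2.61, 3.17, 2.8 and 2.99, a fall by 0.50 (SE 0.12, adjusted p = 0.0422). None of the 3 genes had overlapping groups in spleen, and in each the highest hM3Dq value was that of replicate 5.

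In bone marrow the same 3 genes had overlapping groups in FPKM as deposited and did not pass the test. After scaling for composition the groups of Cyp51 did not overlap. The log2 differences there were -0.57 ± 0.15 for Cyp51 (adjusted p = 0.0588), -0.39 ± 0.17 for Sqle (adjusted p = 0.208) and -0.49 ± 0.15 for Msmo1 (adjusted p = 0.0931). Msmo1 had 4.91 FPKM in hM3Dq replicate 5 against 2.98, 3.26 and 3.06 in replicates 6 to 8 and 4.27 to 4.92 in the mCherry libraries. The overlap of Msmo1 therefore came from that single library, and without it Msmo1 differed by -0.63 (adjusted p = 0.0175) and Cyp51 by -0.69 (adjusted p = 0.025).

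Of the remaining 8 sterol enzymes none passed the test. Nsdhl, a decarboxylase that acts after MSMO1, had 2.86, 3.09, 3.1 and 3.19 FPKM in the spleen hM3Dq libraries against 3.73, 4.25, 3.55 and 3.76, without overlap and with a log2 difference of -0.34 ± 0.09 (adjusted p = 0.0573). Lss, which folds the sterol rings, also had no overlap in spleen, with 0.969 to 1.19 against 1.31 to 1.57 FPKM and a log2 difference of -0.35 ± 0.12 (adjusted p = 0.103). Other sterol enzymes showed smaller differences in spleen: Ebp -0.01 ± 0.10, Hsd17b7 0.02 ± 0.10, Tm7sf2 0.02 ± 0.10, Sc5d 0.08 ± 0.09 and Dhcr7 -0.08 ± 0.09, and the squalene synthase gene Fdft1, which precedes Sqle, had 0.10 ± 0.14. Fdft1 shares 18.3% of its exon bases with Ctsb, a cathepsin gene on the opposite strand at 103 to 181 FPKM, Fdps shares 26.7% with Gm43738 on the same strand, and Tm7sf2 shares 12.1% with Vps51 on the same strand, so reads of these pairs may not be told apart. The overlaps of the 5 enzymes that fell were of 12.1% or less, and none was found for Sqle or Msmo1.

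**Figure D2:**
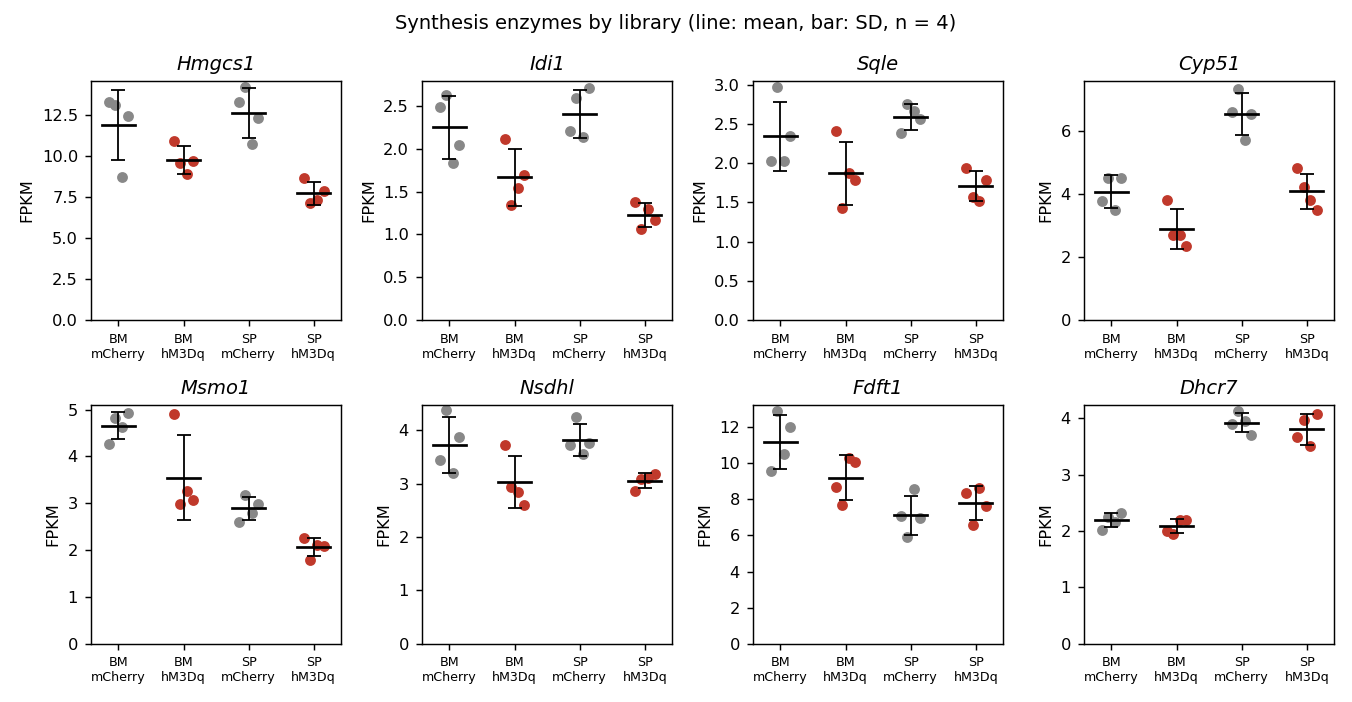
FPKM (y axis, from 0) of 8 synthesis enzymes in each library of the 4 groups (x axis; points, libraries; line, mean; bar, SD of 4 libraries). In spleen the hM3Dq points of Hmgcs1, Idi1, Sqle, Cyp51, Msmo1 and Nsdhl all lie below the mCherry points, whereas those of Fdft1 and Dhcr7 overlap them, and in bone marrow the Msmo1 point of replicate 5, at 4.91 FPKM, stands above the other 3 hM3Dq points.

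The promoter windows of 4 of the enzymes that fell in spleen are shown with that of Abca1, which moved the opposite way. They are the 300 bases from 250 before to 50 after the start site, from RefSeq on GRCm38.p6, at chr13:119690101-119690400 (plus strand), chr13:8885356-8885655 (plus strand), chr5:4104648-4104947 (minus strand), chr8:64733529-64733828 (minus strand) and chr4:53159846-53160145 (minus strand). Capitals mark CCAAT, the core of the box bound by NF-Y, a partner of SREBP, in either orientation (CCAAT or ATTGG), and a sterol regulatory element searched as TCACNCCAC.
Hmgcs1: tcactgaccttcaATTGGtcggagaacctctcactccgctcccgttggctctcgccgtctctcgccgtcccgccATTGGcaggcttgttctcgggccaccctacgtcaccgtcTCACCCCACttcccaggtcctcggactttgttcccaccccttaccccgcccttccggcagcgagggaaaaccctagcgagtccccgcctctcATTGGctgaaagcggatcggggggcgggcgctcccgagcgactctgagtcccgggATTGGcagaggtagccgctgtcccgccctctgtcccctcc
Idi1: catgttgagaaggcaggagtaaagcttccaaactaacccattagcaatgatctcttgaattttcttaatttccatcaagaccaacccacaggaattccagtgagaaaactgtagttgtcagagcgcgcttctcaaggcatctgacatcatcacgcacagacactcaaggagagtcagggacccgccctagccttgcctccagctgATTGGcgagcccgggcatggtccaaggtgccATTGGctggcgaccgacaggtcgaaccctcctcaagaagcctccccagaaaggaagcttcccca
Cyp51: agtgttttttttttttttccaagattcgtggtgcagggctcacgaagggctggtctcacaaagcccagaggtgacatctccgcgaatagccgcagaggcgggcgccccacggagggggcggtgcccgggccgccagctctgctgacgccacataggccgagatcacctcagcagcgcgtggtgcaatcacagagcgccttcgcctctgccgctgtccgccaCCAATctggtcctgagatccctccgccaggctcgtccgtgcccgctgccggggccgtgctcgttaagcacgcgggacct
Msmo1: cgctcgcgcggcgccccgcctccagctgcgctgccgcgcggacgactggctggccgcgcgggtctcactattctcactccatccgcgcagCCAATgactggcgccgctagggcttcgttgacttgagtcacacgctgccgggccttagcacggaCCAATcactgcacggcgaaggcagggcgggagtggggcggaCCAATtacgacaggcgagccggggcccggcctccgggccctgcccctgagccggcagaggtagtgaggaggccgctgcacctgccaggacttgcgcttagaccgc
Abca1: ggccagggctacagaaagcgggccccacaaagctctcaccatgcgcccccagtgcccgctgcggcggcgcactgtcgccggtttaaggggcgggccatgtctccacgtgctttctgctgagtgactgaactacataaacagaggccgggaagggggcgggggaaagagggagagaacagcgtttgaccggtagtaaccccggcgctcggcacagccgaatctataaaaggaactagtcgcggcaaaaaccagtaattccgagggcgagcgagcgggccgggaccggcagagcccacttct

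Each of the 4 enzyme windows held at least 1 CCAAT box, and the Abca1 window held none. The window of Mylip, which also rose in spleen, held CCAAT boxes that begin at -190, -108 and -67. Windows of enzymes that did not pass the test, such as Mvk, Hsd17b7 and Ebp, held the box too. Of the windows of these genes, only that of Hmgcs1 had an exact match to TCACNCCAC. The match begins at position -137 from the start site, between CCAAT boxes that begin at -176 and -45. Sterol regulatory elements with other letters were not searched in any window. RefSeq windows matched 25 of the 30 genes, and 15 of the 18 enzymes had 18 windows in all. CCAAT lay in 14 of these 18 (77.8%) against 37.4% of the 32851 windows of all genes, and GGGCGG, the Sp1 box, in 15 (83.3%) against 35.7%. TCACNCCAC lay in 1.24% of all windows and CACGTG, the E-box, in 3 of the 18 (16.7%) against 7.15%. The LXR element was searched as a perfect direct repeat of its half-site spaced by 4 bases, and the glucocorticoid element as a perfect palindrome. Neither perfect form lay in a window of the 30 genes, and they lay in 0.0152% and 0.00913% of all windows. Because perfect forms are this rare and imperfect ones were not searched, their absence does not show that a window, such as that of Abca1 or Srebf1, lacks these elements. Both strands were searched for each motif with exact letters, matches of different motifs could overlap, and a match is a description and not a measured binding site.

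The genes that control SREBP activity did not pass the test in either tissue. Srebf2, whose protein is the main activator of cholesterol synthesis, had the highest mean of the 30 genes per length in the mCherry libraries of both tissues, 26.3 ± 2.45 FPKM in bone marrow mCherry and 44.8 ± 2.35 FPKM in spleen mCherry libraries (SD, n = 4). In spleen its hM3Dq libraries had 41.7, 37.8, 34.2 and 38.4 FPKM against 41.3, 45.5, 45.5 and 46.6, which overlapped through hM3Dq replicate 5. The log2 difference was -0.27 ± 0.08 (adjusted p = 0.0773), or -0.33 (adjusted p = 0.0333) without that library, and in bone marrow it was -0.16 ± 0.09. Srebf1, whose protein SREBP1 mainly drives fatty acid synthesis and which LXR induces, had 14.9, 17.7, 14.9 and 14.8 FPKM in the spleen hM3Dq libraries against 12.8, 13.5, 12.9 and 12.5. These did not overlap, as for 9.35% of all genes tested with hM3Dq above, and the log2 difference was 0.23 ± 0.07 (adjusted p = 0.0695). Insig1 had log2 differences of 0.35 ± 0.15 in bone marrow (adjusted p = 0.198) and 0.11 ± 0.09 in spleen, Insig2 of 0.06 ± 0.09 and 0.08 ± 0.08, and Scap of 0.10 ± 0.13 and 0.15 ± 0.10.

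The transport and storage genes were within the spread of the libraries. Soat1, which esterifies cholesterol for storage in droplets, had log2 differences of 0.10 ± 0.09 in bone marrow and -0.06 ± 0.07 in spleen. Stard4, which moves sterol between membranes, had -0.06 ± 0.14 and -0.09 ± 0.08.

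In the LXR group, Abca1, the pump that loads cholesterol onto apolipoproteins, rose in both tissues. It lies on the minus strand of chr4:53030787-53159895 (GRCm38). In bone marrow it had 2.81, 4.79, 3.43 and 3.12 FPKM in the hM3Dq libraries against 1.73, 1.7, 1.19 and 1.59 FPKM in the mCherry libraries. In spleen it had 16.3, 32.4, 20.3 and 25.2 against 9.33, 10.1, 10.6 and 12.8 FPKM. The groups overlapped in neither tissue, as for 12.2% of all genes tested in bone marrow and 9.35% in spleen with hM3Dq above, and replicate 6 was the highest in both. Abca1 rose 2.08-fold in bone marrow (log2 change 1.05 ± 0.18, adjusted p = 0.0166) and 2.08-fold in spleen (1.06 ± 0.18, adjusted p = 0.013). With 1 library left out its log2 change was 0.91 to 1.17 in bone marrow and 0.92 to 1.21 in spleen, past the threshold in all 8 fits of each tissue, although without the filter on low values the bone marrow adjusted p was 0.051.

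Abcg1, which exports sterol to high-density lipoprotein, rose in spleen, where the hM3Dq libraries had 16.8, 18.2, 17.4 and 16.2 FPKM and the mCherry libraries 13.6, 14.5, 13.7 and 13.5 FPKM without overlap. The log2 change was 0.28 ± 0.06 (adjusted p = 0.0331). In bone marrow the values were 6.98, 6.18, 7.07 and 5.33 against 4.27, 4.55, 5.16 and 5.43 FPKM, with overlap only between hM3Dq replicate 8 and mCherry replicate 4, and the log2 difference was 0.31 ± 0.12 (adjusted p = 0.166). Mylip rose in spleen, with 40.6, 49.4, 40.2 and 41.9 FPKM against 33.1, 32.5, 35.4 and 36.2 and a log2 change of 0.29 ± 0.06 (adjusted p = 0.0318). In bone marrow its values of 17.2 to 20.2 FPKM lay above the mCherry values of 13.7 to 16 FPKM, though the groups overlapped after scaling for composition. The log2 difference was 0.26 ± 0.09 (adjusted p = 0.128).

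Nr1h3, the LXR-alpha receptor gene that macrophages express, fell in both tissues while its target genes above rose or did not pass the test. In spleen the hM3Dq libraries had 5.44, 2.07, 3.33 and 2.65 FPKM against 7.19, 8.55, 10 and 6.5 FPKM. In bone marrow they had 0.557, 1.21, 0.964 and 0.55 against 1.33, 1.82, 1.93 and 1.56 FPKM. The groups did not overlap in either tissue, and replicates 5 and 6 changed places, with replicate 5 the highest of its group in spleen and replicate 6 in bone marrow. Nr1h3 fell by 1.33 on the log2 scale in spleen (SE 0.29, adjusted p = 0.031) and by 1.07 in bone marrow (SE 0.25, adjusted p = 0.0417). Nr1h2, the LXR-beta gene that most cells express, had bone marrow hM3Dq values of 22.1, 26.4, 21.7 and 24.6 FPKM above the mCherry values of 17.2, 18.5, 18.7 and 18.4, and its log2 difference was 0.30 ± 0.08 (adjusted p = 0.0682). In spleen Nr1h2 had 0.16 ± 0.07 (adjusted p = 0.197), with overlap.

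**Figure D3:**
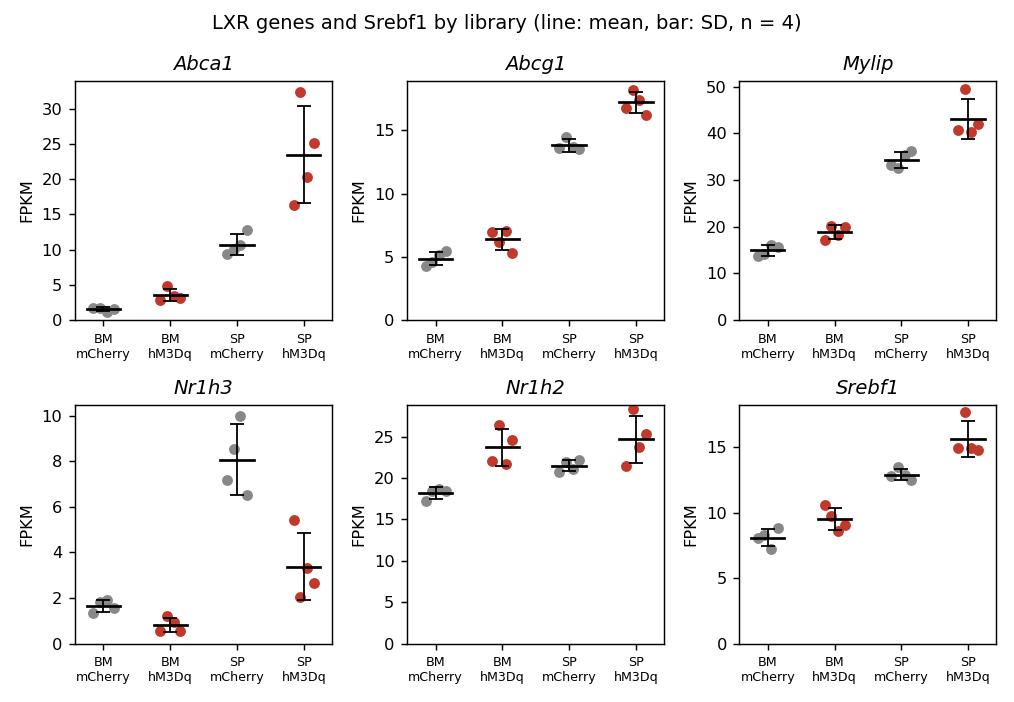
FPKM (y axis, from 0) of the LXR group and Srebf1 in each library of the 4 groups (x axis; points, libraries; line, mean; bar, SD of 4 libraries). The Abca1 points of hM3Dq lie above those of mCherry in each tissue and the Nr1h3 points below, and spleen exceeds bone marrow for Abca1, Abcg1, Mylip and Nr1h3.

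The calls differed in how often they held when 1 library was left out. In such fits the calls over all genes, 1375 in spleen and 762 in bone marrow, became 418 to 1749 and 275 to 697. In spleen Abca1, Idi1, Hmgcs1 and Cyp51 passed in all 8 fits that left out 1 library. Sqle passed only without hM3Dq replicate 5 or 6, Abcg1 only without hM3Dq replicate 5 or mCherry replicate 2, and Msmo1, Nr1h3 and Mylip only without hM3Dq replicate 5. The lost calls had adjusted p-values of 0.0504 to 0.0984 and log2 changes of the same sign. In bone marrow Nr1h3 passed only without hM3Dq replicate 6 or 7, with 0.0623 to 0.108 in the other fits. In fits that took the share of haemoglobin reads as a covariate, the adjusted p was 0.0806 for Nr1h3 in bone marrow and, in spleen, 0.0599 for Abcg1, 0.0537 for Mylip and 0.0738 for Msmo1, and the other calls held. Without the filter on low values, Nr1h3 (0.118) and Abca1 (0.051) did not pass in bone marrow, nor did Sqle (0.0626), Msmo1 (0.0978), Nr1h3 (0.0685) and Mylip (0.0518) in spleen, where the values in parentheses are adjusted p. In a fit of all 16 libraries Abcg1 did not pass in spleen (adjusted p = 0.0836).

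No difference between the tissues in the response passed the test for any of the 30 genes in either direction, where 0.0389% of all genes tested had a higher and 0.0612% a lower change in bone marrow. The differences (bone marrow change minus spleen change) ran from -0.46 for Fdft1 (95% interval -0.89 to -0.03, unadjusted p = 0.0375) to 0.49 for Pmvk (-0.33 to 1.31). For the genes called in spleen they were 0.39 for Hmgcs1 (-0.00 to 0.78), 0.46 for Idi1 (-0.01 to 0.93), 0.22 for Sqle (-0.24 to 0.68), 0.14 for Cyp51 (-0.28 to 0.55) and 0.01 for Msmo1 (-0.40 to 0.43). Those of Abca1 (-0.01, interval -0.58 to 0.57) and Nr1h3 (0.27, interval -0.61 to 1.14) had wider intervals. Of the 30 genes only Fdft1 had an unadjusted p below 0.05, against 8.90% of all genes tested, and its adjusted p was 0.523.

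The 5 enzymes called in spleen deviated from their group means in the same direction in some libraries. In hM3Dq replicate 5 all 5 lay above their group mean in both tissues, by a median of 0.32 on the log2 scale in bone marrow and 0.20 in spleen. In hM3Dq replicate 6 none of the 5 did, and their medians were -0.25 and -0.20. The lowest Abca1 value of the hM3Dq libraries was that of replicate 5 in each tissue, and the highest that of replicate 6. Over all 18 enzymes the medians of these libraries were 0.11 and 0.13 for replicate 5 and -0.10 and -0.07 for replicate 6. Haemoglobin shares were low in both replicates 5 and 6 in bone marrow and only in replicate 6 in spleen, and the part of either in these values was not tested. Shared deviations of the 5 enzymes were found in mCherry libraries too. In spleen mCherry replicate 2 all 5 lay above their group mean (median 0.16), and in bone marrow mCherry replicate 3 only 1 did (median -0.19).

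**Figure D4:**
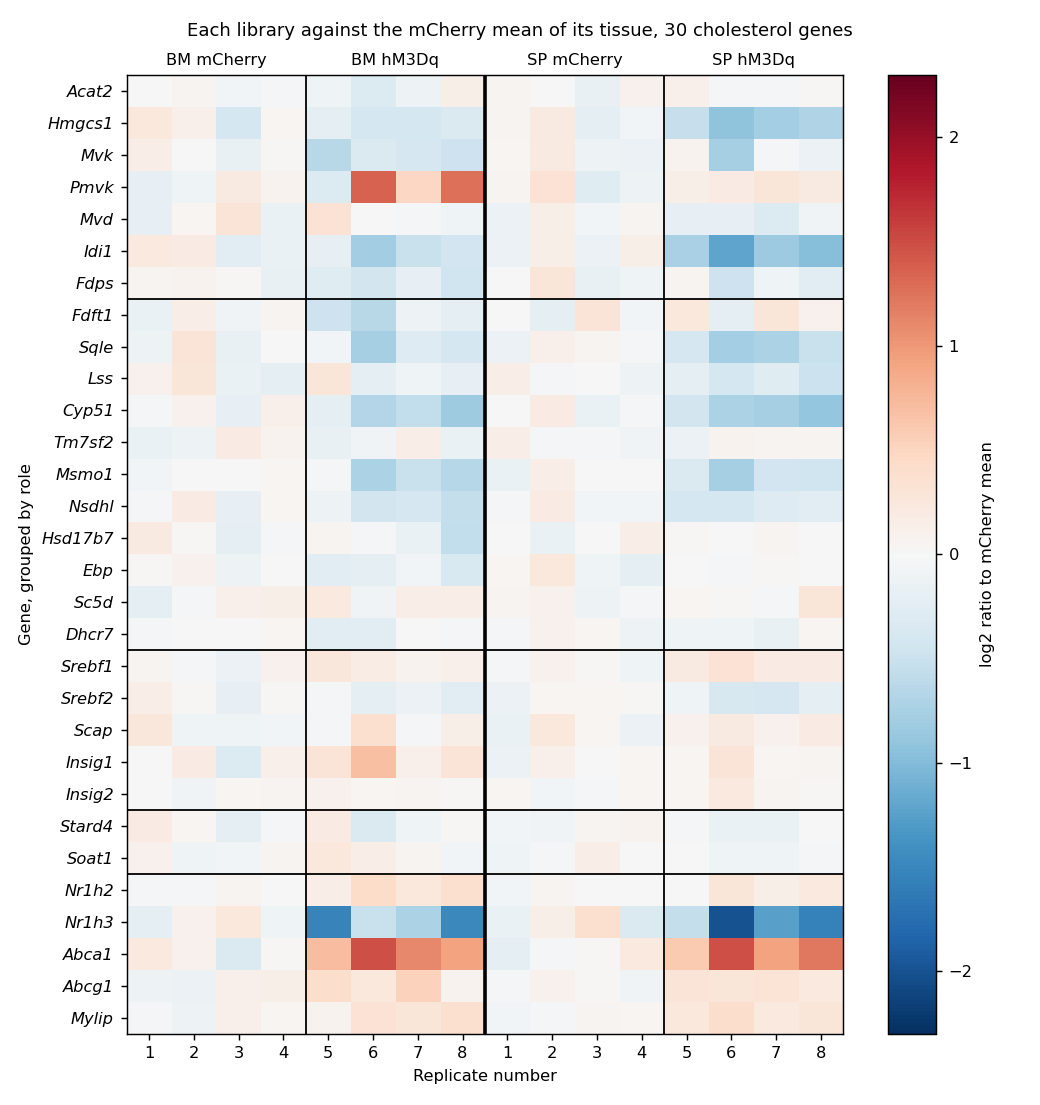
Each library as a log2 ratio of scaled FPKM to the mean of the mCherry libraries of its tissue (colour scale, blue lower and red higher), with the 30 genes in rows by role and the 16 libraries in columns by group and replicate number. The hM3Dq columns of both tissues are red for Abca1 and blue for Nr1h3, and in the rows of Hmgcs1, Idi1, Sqle, Cyp51 and Msmo1 the hM3Dq columns of replicate 5 are paler than those of replicate 6.

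In the mCherry libraries 9 of the 30 genes were higher and 11 lower in bone marrow than in spleen. Over all genes tested 35.3% were higher and 34.0% lower, so the count among the 30 is near the background. The whole LXR group except Nr1h2 was lower in bone marrow. Abca1 had 1.55 ± 0.247 FPKM in bone marrow and 10.7 ± 1.5 FPKM in spleen (SD, n = 4), a log2 difference of -2.44 ± 0.14 (adjusted p = 7.82e-07). The differences were -1.94 ± 0.17 for Nr1h3, -1.22 ± 0.09 for Abcg1 and -0.91 ± 0.07 for Mylip, and Nr1h2 had 0.04 ± 0.06. Srebf1, Srebf2, Insig1 and Insig2 were lower in bone marrow too, with log2 differences of -0.39 ± 0.08, -0.49 ± 0.08, -0.39 ± 0.12 and -0.23 ± 0.08, and Insig2 did not pass with a replicate block (adjusted p = 0.065).

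The enzymes did not all differ between tissues in 1 direction. In mCherry libraries 8 of the 18 were higher in bone marrow, led by Fdps (1.12 ± 0.11), Mvd (0.96 ± 0.12), Msmo1 (0.95 ± 0.09) and Fdft1 (0.93 ± 0.12), and also Hsd17b7, Ebp, Mvk and Tm7sf2. The Tm7sf2 call was lost without the filter (adjusted p = 0.0807), with median-of-ratios scaling (0.0642) and with a replicate block (0.11). Lss (-1.07 ± 0.15), Dhcr7 (-0.54 ± 0.09) and Cyp51 (-0.39 ± 0.11) were lower in bone marrow. Fdps had 7.46, 8.11, 7.41 and 6.7 FPKM in bone marrow against 4.16, 4.88, 3.56 and 3.92 in spleen, and Lss 0.513, 0.646, 0.436 and 0.425 against 1.57, 1.33, 1.36 and 1.31. Both were without overlap, and the share of all genes tested without overlap between the tissues was not counted. Enzymes of the same part of the pathway thus had opposite differences between the tissues, as for Cyp51 and Msmo1 among the sterol steps. Soat1 was higher in bone marrow (0.71 ± 0.08).

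After activation of hM3Dq, 9 of the 30 were higher and 10 lower in bone marrow than in spleen, against 33.9% and 31.6% of all genes tested. Abca1 (-2.44 ± 0.21), Abcg1 (-1.18 ± 0.10), Mylip (-0.94 ± 0.08) and Nr1h3 (-1.67 ± 0.34) were again lower in bone marrow. Hmgcs1 (0.57 ± 0.10, adjusted p = 0.00093) and Idi1 (0.63 ± 0.17, adjusted p = 0.00844) were higher in bone marrow in the hM3Dq libraries, whereas in the mCherry libraries they had 0.18 ± 0.15 and 0.17 ± 0.14 and did not pass. The test of that change is the comparison of responses above, where neither gene passed. The bone marrow libraries held much more neutrophil RNA, with 10 markers of mature neutrophils at 31170 to 47194 FPKM against 1369 to 3999 FPKM in spleen, and fewer B cell transcripts, 178 to 301 FPKM against 1294 to 1900 FPKM for 10 markers. The part of this cell content in the tissue differences was not tested. Without scaling for composition the median of all genes shifted to -0.275 in mCherry and -0.216 in hM3Dq libraries, and the calls of all genes in mCherry moved from 5987 higher and 5759 lower to 4083 and 7977. Under that setting Mvk (0.14) and Tm7sf2 (0.01) in the mCherry libraries and Fdft1 (0.23) and Idi1 (0.41) in the hM3Dq libraries did not pass. Scap in the mCherry and Cyp51 in the hM3Dq libraries were called lower, and the calls of Abca1, Abcg1, Mylip and Nr1h3 held. In the hM3Dq libraries only 11 of the 30 genes were followed gene by gene. Genes whose sign changed, among them Nr1h2 (-0.24 in the mCherry libraries), were not counted here as gained calls.

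**Figure D5:**
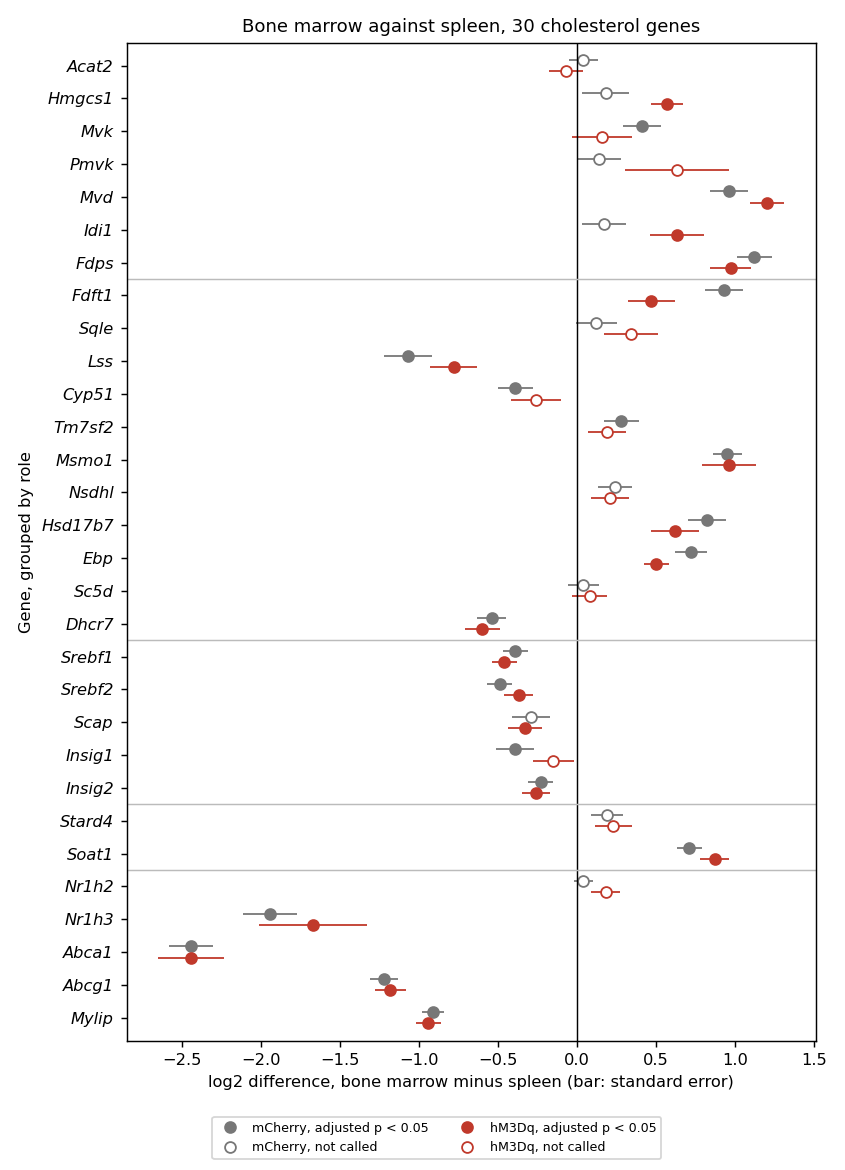
Difference of each of the 30 genes between bone marrow and spleen (x axis, bone marrow minus spleen, log2 scale; bars, standard errors of limma; 4 libraries a group), in mCherry and in hM3Dq libraries, with genes grouped by role on the y axis and filled points past an adjusted p of 0.05. Abca1 lies at -2.44 in both, Fdps at 1.12 and 0.97, and Hmgcs1 and Idi1 are filled in the hM3Dq libraries only.

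Genes around the pathway were listed for comparison. Beside these lists, 3.04% of all genes tested rose and 1.70% fell in bone marrow, and 3.48% rose and 4.57% fell in spleen. Of 15 genes of fatty acid synthesis and SREBP1 targets, 14 passed the filter on low values, and of these 3 rose in bone marrow and 4 in spleen and none fell. The other gene, Me1, which encodes malic enzyme and is named here after its values were seen, had too few reads for the test in either tissue. It had 0.0575, 0.113, 0.072 and 0.0399 FPKM in the bone marrow hM3Dq libraries against 1.29, 0.128, 1.12 and 2.12 FPKM in the mCherry libraries. The groups did not overlap, as for 3.81% of all genes tested with hM3Dq below. The nearest values, 0.113 FPKM in hM3Dq replicate 6 and 0.128 FPKM in mCherry replicate 2, rested on 6 and 7 reads. The stearoyl-CoA desaturase gene Scd1 rose by 1.00 ± 0.16 on the log2 scale in bone marrow (adjusted p = 0.0141), with 15.8 to 22.5 FPKM in the hM3Dq and 7.17 to 11 FPKM in the mCherry libraries. In spleen it rose by 0.64 ± 0.15 (adjusted p = 0.0387), with 103 to 183 against 78.1 to 99.9 FPKM. Scd2 rose by 0.57 ± 0.13 and 0.71 ± 0.12 in bone marrow and spleen, the elongase gene Elovl5 by 0.61 ± 0.10 and 0.42 ± 0.06, and Lpin1, a phosphatidate phosphatase gene, by 0.33 ± 0.08 in spleen. The median change of the 14 genes was 0.06 in bone marrow and 0.08 in spleen. The FPKM of all 15 summed to 169 to 188 in the hM3Dq against 147 to 164 in the mCherry libraries of bone marrow, and to 259 to 352 against 218 to 232 in spleen.

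Of 10 genes for SREBP processing and sterol-dependent degradation, Ufd1, a cofactor of the VCP unfoldase, rose by 0.45 ± 0.11 in bone marrow (adjusted p = 0.0497) and by 0.61 ± 0.09 in spleen, and Rnf145, a sterol-responsive ubiquitin ligase gene, by 0.52 ± 0.12 in spleen. None of these 10 fell. Among 13 genes of lysosomal and vesicular sterol transport, Lipa, whose acid lipase frees cholesterol from lipoprotein esters, fell by 0.73 in bone marrow (SE 0.16, adjusted p = 0.0377) and by 0.78 in spleen (SE 0.15, adjusted p = 0.0219). Its values were 9.52 to 15.5 against 15.8 to 24.2 FPKM in bone marrow and 19.7 to 28.1 against 31.2 to 42 FPKM in spleen, without overlap in either, and Osbpl8, which encodes a lipid exchanger of membrane contact sites, fell by 0.30 in spleen (SE 0.08). Of 13 genes of the dolichol, quinone and prenylation branches, Dhdds fell by 0.51 in bone marrow (SE 0.09) and Icmt by 0.31 in spleen (SE 0.07).

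Sorl1, a sorting receptor of the lipoprotein receptor family, rose in spleen. It had 69.9, 91.9, 72.2 and 84 FPKM in the spleen hM3Dq libraries against 40.1, 43.4, 45.8 and 45.6, a log2 change of 0.82 ± 0.09 (adjusted p = 0.00341), and the groups did not overlap. Of 5 oxysterol genes 3 passed the filter. Gpr183, the receptor by which B cells follow oxysterols, fell by 0.45 in spleen (SE 0.08, adjusted p = 0.0164), with 13.7 to 15.9 against 19.6 to 20.7 FPKM. Ch25h, which makes a ligand of LXR and a precursor of the GPR183 ligand, was listed at 0 in 15 of the 16 libraries and at 0.05 FPKM in the other. Cyp7b1 was at 0 to 0.255 FPKM. Of 11 further LXR targets and partners, 3 lay above 0 and 8 below in spleen (median -0.08, against -0.021 over all genes tested). In bone marrow 6 lay above 0 and 5 below (median 0.05, against -0.009), and none of the 11 was called higher in either tissue. Among them Lpl, a lipoprotein lipase gene, fell by 1.53 in spleen (SE 0.23, adjusted p = 0.00919), with 0.516 to 0.748 against 1.49 to 3 FPKM. In bone marrow Lpl differed by -1.16 ± 0.28 (adjusted p = 0.0509).

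Cell-type transcripts moved with the virus beside these genes. Over all genes tested, 3.48% rose and 4.57% fell in spleen, and 3.04% rose and 1.70% fell in bone marrow. In spleen the 10 B cell markers were all below 0 (median -0.48, against -0.021 over all genes tested). Of them 5 fell, including Cr2 by 1.18, Ms4a1 by 0.78 and Bank1 by 0.93 on the log2 scale. Their sum was 1294 to 1470 FPKM in the hM3Dq against 1530 to 1900 FPKM in the mCherry libraries. In bone marrow 7 of the 10 B cell markers lay above 0 and 3 below (median 0.08, against -0.009 over all genes tested), and 1 was called lower. Of 10 T cell markers, 9 lay below 0 in spleen, where Cd2 fell, and all 10 in bone marrow, where none was called. Of 10 mature neutrophil markers, Trem1 rose and Csf3r fell in spleen. Ptprc fell by 0.34 in spleen (SE 0.07, adjusted p = 0.0297). The 11 monocyte and macrophage markers summed to 399 to 532 FPKM in the hM3Dq and 341 to 577 FPKM in the mCherry libraries of spleen, with Vcam1 higher by 0.89 and Ccr2 fallen by 0.99, and in bone marrow to 364 to 482 and 379 to 475 FPKM with none called (4 lower at an unadjusted p below 0.05). All 15 cell cycle genes lay below 0 in both tissues, with medians of -0.23 in bone marrow and -0.32 in spleen, and none was called by limma. An unadjusted p below 0.05 was found for 4 and 0 of them, against 23.9% and 26.2% of all genes tested. The 11 measured erythroid genes had medians of -0.92 and -0.71 with none called (2 and 0 of them at an unadjusted p below 0.05). The 10 markers of neutrophil precursors were all above 0 in spleen, with a median of 0.46 and none called, and their sums of 849 to 1965 FPKM in the hM3Dq and 622 to 1483 FPKM in the mCherry libraries overlapped. In bone marrow 3 of these markers lay above 0 and 7 below (median -0.07), and 1 was called higher. Of 7 plasma cell markers, Jchain (0.71 ± 0.12) and Prdm1 (0.76 ± 0.15) rose in bone marrow, where the list summed to 362 to 480 against 236 to 278 FPKM, and Prdm1 (0.52 ± 0.13) rose in spleen. Il7r, the only called gene of the 8 on the B precursor list, rose in bone marrow (0.86 ± 0.11) and spleen (1.11 ± 0.13). Of that list 5 lay above 0 and 3 below in bone marrow (median 0.14). In spleen 6 were tested, 3 above 0 and 3 below (median 0.06). In the mCherry libraries Il7r was lower in bone marrow than in spleen, whereas 6 of the 8 were higher. No defining marker of these lists was at 0 in any group, and the part of the cell content in the changes of the cholesterol genes was not tested.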

How the data were processed

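The authors deposited 1 table per library with FPKM values (fragments per kilobase of exon, per megafragment assigned, per the file headers) for 49585 Ensembl genes. The submitters' processing notes name CASAVA 1.9, STAR 2.6.1a, featureCounts, edgeR 3.28.1 and the build GRCm38. Neither the strand setting nor the release of the annotation is given in the sources used here.

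Symbols and exon lengths came from GENCODE M21. FPKM times exon length fell on whole multiples, within 0.01, for 27922 of 31954 genes above 0 (87.4%). Another length was used for 4031, and 1 was not recovered. These reads served the filter, the scaling and the haemoglobin share. FPKM was divided by TMM factors (trims of 30% and 5%) and 0.1 was added before log2, which understates changes of low genes. Genes needed 10 reads in at least 4 libraries of a comparison. limma 3.58.1 (R 4.3.3) with a trend gave two-sided tests with Benjamini-Hochberg adjustment over all genes tested: 16095 in bone marrow, 17076 in spleen, 17987 for the difference of responses, 16943 and 16770 between tissues in mCherry and hM3Dq libraries. The first of these comparisons called 762 genes, the second 1375, the third 18. The call threshold was an adjusted p of 0.05. Values after ± are standard errors of limma unless SD is stated. No sample was dropped. The procedure was tested on simulated data.

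Whether groups overlap was read from FPKM as deposited. The 30 genes and all lists were chosen with earlier results of these data known. Any of the 30 could be named. Of the other lists, called genes with the smallest p were named, at most 4 per comparison, or 3 per marker list, with the oxysterol list whole, Lpl in bone marrow beside its spleen value, and Ptprc and Fkbp5 as checks. Some results are not reported here. Alternatives were another pseudocount, filter, scaling, spread estimate, a fit of all 16 libraries, haemoglobin as a covariate, a replicate block and each library left out.

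Depth was 11.34 to 16.96 megafragments (M) assigned, so 1 fragment in a gene of 2 kilobases gives 0.0295 to 0.0441 FPKM. Replicate libraries correlated at 0.9661 to 0.9859 and differed beyond sampling noise (chi-square over its degrees of freedom, 6.61 to 41.48), so none was counted as a copy.

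Tables and plots were made with Python 3.11.15 (pandas 2.3.3, numpy 2.4.6, matplotlib 3.10.9).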

Additional observations from a re-analysis of the deposited data

Results flagged for a closer look

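Of 120 sets of 4 libraries (30 genes in 4 groups), 7 held a library far from the other 3, where chance gives about 1 in 20. In bone marrow hM3Dq replicate 5, Lss had 0.677 FPKM against 0.462 in the next library, and Msmo1 had 4.91 against 3.26 FPKM. In spleen hM3Dq replicate 6, Srebf1 had 17.7 against 14.9 FPKM, Insig1 11.1 against 8.67 FPKM and Insig2 7.11 against 5.91 FPKM. In spleen mCherry replicate 1, Tm7sf2 had 2.93 against 2.49 FPKM. In bone marrow mCherry replicate 3, Srebf2 was lowest at 22.6 against 27.1 FPKM in the next.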

How the results depend on the processing

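The bone marrow calls over all genes, 762, became 285 without the filter on low values, 1618 in a fit of all 16 libraries, 496 with haemoglobin as a covariate and 275 to 697 with 1 library left out. Among the 30 genes in bone marrow, 1 rose, against 0 without the filter, 2 without composition scaling (Abca1 and Nr1h2), 4 in the fit of all 16 libraries (with Nr1h2, Abcg1 and Mylip) and 1 to 2 with 1 library left out. The 1 that fell became 0 without the filter, with an FPKM filter of 1 or with the haemoglobin covariate, 4 in the fit of all 16 libraries (with Cyp51, Msmo1 and Nsdhl) and 0 to 2 with 1 library left out. Spleen calls, 1375, became 591 without the filter and 418 to 1749 with 1 library left out. The 3 genes of the 30 that rose became 2 in the fit of all 16 libraries (without Abcg1), 1 with the haemoglobin covariate and 1 to 3 with 1 library left out, and the 6 that fell became 3 without the filter and 3 to 7 with 1 library left out. The cause of these shifts was not tested.

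The calls for the difference of responses, 18, became 80 with a pseudocount of 1, 11 without composition scaling, 9 with a replicate block and 3 to 36 with 1 library left out. None of the 30 genes was called in any of these fits. Between tissues the calls moved by less than 1.5 times. Numbers shared by bone marrow and spleen were not used as pairs in the main fits, because the labels do not say that a number is 1 mouse. Deviations of same-numbered libraries correlated at 0.037 to 0.338. Of 8 bone marrow libraries, 7 correlated best with the spleen library of their own number, a hint from the data and not from the design. With the replicate block Tm7sf2 (adjusted p = 0.11) and Insig2 (adjusted p = 0.065) did not pass between tissues in mCherry libraries, while Scap was gained there with median-of-ratios scaling (adjusted p = 0.0461). No paired analysis was possible within a tissue because the virus groups share no replicate number.

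Signs changed for differences near 0. Without composition scaling the bone marrow changes of Lss, Tm7sf2 and Stard4 were 0.01, 0.01 and 0.02, the spleen change of Ebp was 0.03 (0.01 with median-of-ratios scaling), and the differences of responses were 0.03 for Abca1 and 0.02 for Mylip. For Msmo1 that difference was -0.04 with a pseudocount of 1 and -0.0022 with median-of-ratios scaling. Between tissues in mCherry libraries, values without composition scaling were -0.24 for Acat2, Sc5d and Nr1h2, -0.10 for Hmgcs1 and Idi1, -0.14 for Pmvk, -0.15 for Sqle, -0.04 for Nsdhl and -0.09 for Stard4, beside a shift of -0.275 in the median of all genes.

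With 1 library left out, bone marrow changes ran from -0.05 to 0.14 for Mvd, -0.17 to 0.03 for Lss and -0.14 to 0.04 for Stard4. Spleen changes ran from -0.04 to 0.04 for Acat2, -0.0049 to 0.08 for Tm7sf2, -0.02 to 0.08 for Hsd17b7 and -0.07 to 0.08 for Ebp. Differences of responses ran from -0.13 to 0.10 for Msmo1, -0.15 to 0.13 for Abca1, -0.04 to 0.11 for Abcg1 and -0.07 to 0.03 for Mylip. Tissue differences in mCherry libraries ran from -0.02 to 0.06 for Acat2 and -0.0011 to 0.11 for Sc5d. Mean FPKM of a gene in a group moved by more than its SD under composition scaling in 47 of 120 cases.

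Low read numbers limit Nr1h3 in bone marrow (18 reads in 1 library) and Idi1 in spleen (42 reads in 1 library).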
